A study of Caenorhabditis elegans with 3 samples.

Results

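PQM-1 sites that lie in clusters were described in the nematode Caenorhabditis elegans, as runs of at least 3 neighbouring chromatin immunoprecipitation and sequencing (ChIP-seq) peaks. The members were chosen by measured values, the summit positions of the authors' optimal peak list on genome build ce11. Summits on the nuclear chromosomes were sorted, neighbours no more than 3000 bp apart were joined, and every peak of a run with 3 or more summits was kept. This gave 943 of 4739 optimal peaks, in 270 runs. Of the 3796 peaks outside such runs, 1324 lay in pairs and 2472 had no neighbour within 3000 bp.

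PQM-1 was profiled in whole L4 larvae of pooled males and females of strain OP201, genotype unc-119(tm4063) III; wgIs201. The transgene encodes PQM-1 fused at its C-terminus to GFP and FLAG, and the animals also carry the unc-119 mutation. There was 1 group, with 3 libraries from 2 biological replicates, of which replicate 1 had 2 technical libraries. No other genotype, stage or treatment was compared, and tissues were not separated, so a peak cannot be assigned to a cell type. The depth of the libraries is unknown from peak lists, and p-values below describe peaks and not animals.

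PQM-1 is a C2H2 zinc finger transcription factor studied for its part in growth, stress responses and lifespan downstream of insulin-like signalling. It is known for its link to the DAF-16-associated element (DAE), TGATAAG, a word that contains the GATA core. The same core is bound by GATA factors such as ELT-2, the main GATA regulator of intestinal genes. Genes with large regulatory regions often hold several separate binding sites of 1 factor, in the promoter, further upstream and in introns.

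The run with the most summits held 8, on chromosome IV at 8024046 to 8034390, across and upstream of nhr-31, which encodes a nuclear hormone receptor needed in the excretory cell. Its sequences are shown because they give the make-up of 1 cluster from end to end. Each reaches 50 bp to either side of a summit, plus strand, from the RefSeq genome of build ce11, and is named by the distance from the start of nhr-31, upstream being negative, except the first, named by its place. Capitals mark each GATA word (A or T, then GATA, then A or G) on either strand.
Intron of nhr-31, first summit, chrIV:8023996-8024096: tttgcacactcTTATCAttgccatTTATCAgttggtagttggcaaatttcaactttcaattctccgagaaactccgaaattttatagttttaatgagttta
+2951 bp, intron, chrIV:8026512-8026612: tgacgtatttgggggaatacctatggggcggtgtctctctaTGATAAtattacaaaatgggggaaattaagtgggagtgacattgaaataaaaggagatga
+798 bp, intron, chrIV:8028665-8028765: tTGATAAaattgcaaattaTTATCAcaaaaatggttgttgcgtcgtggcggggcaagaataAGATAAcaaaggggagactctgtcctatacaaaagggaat
−765 bp, promoter, chrIV:8030228-8030328: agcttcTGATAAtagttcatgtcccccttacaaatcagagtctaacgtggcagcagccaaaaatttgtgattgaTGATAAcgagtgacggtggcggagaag
−1537 bp, intergenic, chrIV:8031000-8031100: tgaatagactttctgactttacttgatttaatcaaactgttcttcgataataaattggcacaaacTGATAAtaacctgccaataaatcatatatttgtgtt
−2821 bp, intergenic, chrIV:8032284-8032384: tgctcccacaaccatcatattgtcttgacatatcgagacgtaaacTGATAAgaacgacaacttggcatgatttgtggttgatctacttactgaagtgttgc
−3661 bp, intergenic, chrIV:8033124-8033224: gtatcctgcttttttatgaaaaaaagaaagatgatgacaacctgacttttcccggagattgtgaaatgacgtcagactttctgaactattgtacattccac
−4877 bp, intergenic, chrIV:8034340-8034440: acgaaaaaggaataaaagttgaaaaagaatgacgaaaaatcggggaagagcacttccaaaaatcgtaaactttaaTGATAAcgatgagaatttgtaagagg

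All 8 summits of the nhr-31 run had a GATA word within 100 bp to either side, the window used for all counts below, and 3 had the DAE word. In the narrower windows shown, the summit at −3661 bp has none. The authors' signal, a value per peak set against a control alignment, described peaks within a list. In the pooled data the 8 summits had signals of 43.1, 83.8, 54.8, 151, 34.8, 155, 34.8 and 63.6, in the order shown. The tallest were thus the promoter summit and the one at −2821 bp. In replicate 1 the overlapping peaks had 3.10, 26.98, 21.7, 27.3, 4.10, 40.1, 24.0 and 10.4, and in replicate 2 they had 38.6, 62.5, 40.8, 125, 31.9, 114, 25.1 and 56.2. The same 2 summits were highest in both replicates, whose lists have their own scales, while the summits at −1537 bp and in the first intron window were near the bottom of replicate 1.

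**Figure D1:**
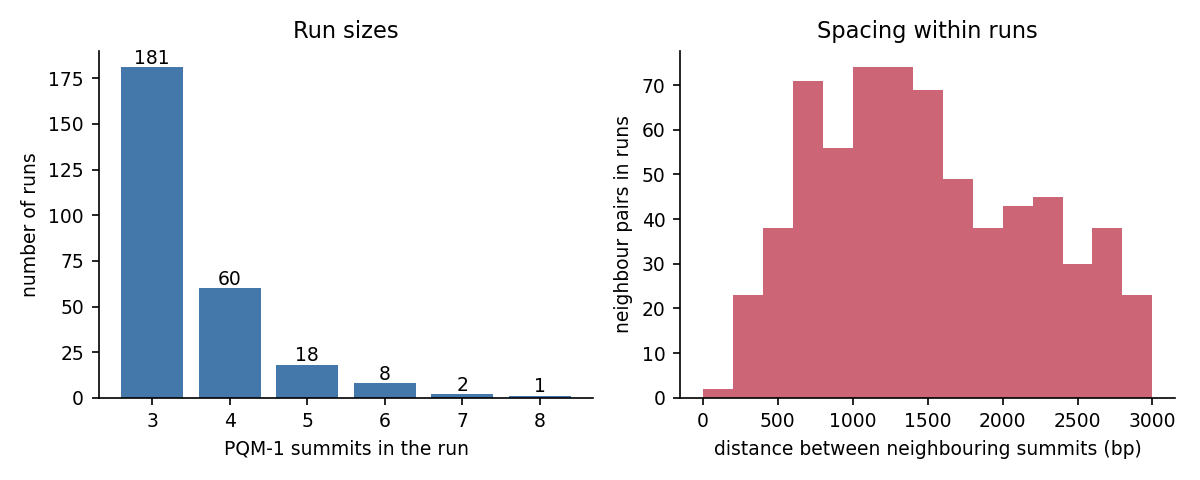
Left, the number of runs (y axis) by the number of PQM-1 summits in the run (x axis). Right, the number of neighbouring summit pairs within runs (y axis) by their distance in bp (x axis, bins of 200 bp). Runs of 3 make up 181 of the 270, and the distances have a median of 1396 bp.

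Runs of 3 summits were the most common, with 181 of 270. A further 60 runs had 4 summits, 18 had 5, 8 had 6, 2 had 7 and 1 had 8. The span from first to last summit had a median of 3483.5 bp and ran from 893 to 10344 bp. Neighbouring summits lay a median of 1396 bp apart, with quartiles of 911 and 2041 bp, over 673 pairs. Of these pairs, 190 were at most 1000 bp apart and 179 over 2000 bp, and 21 had peaks that touched or overlapped. Most neighbouring summits therefore belonged to peaks that did not touch. At the edge of the rule, the widest joined pair was 2999 bp apart, between rgs-7 and vit-4 on chromosome X, with signals of 43.8 and 89.2. The nearest pair left unjoined was 3003 bp apart, at hmit-1.3 on chromosome III, with signals of 55.9 and 38.7.

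Clustered peaks made up between 13.0% and 23.7% of the optimal peaks of a chromosome. The lowest share was on chromosome I (77 of 591) and the highest on chromosome II (179 of 756, 23.7%). The shares were 17.8% on chromosome III, 20.7% on IV, 19.5% on V and 22.1% on X. Per Mb, there were 1.53 runs on chromosome I and 3.78 on X. These densities were not tested, as they follow the density of all peaks that the rule used.

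Clustered PQM-1 summits lay in promoters less often than other summits, and in introns and intergenic sequence more often. Promoters reached from 1000 bp before to 200 bp past the outermost annotated start of each protein-coding gene. Of the clustered summits 31% lay there, against 51.2% of the others, a difference of −20.2 percentage points (95% interval −23.8 to −16.6; linear fit with errors clustered by run, two-sided, adjusted p = 2.06e-26, n = 4739 peaks). Intronic summits outside promoters made up 32.0% against 20.4%, a difference of 11.6 points (7.14 to 16.03; adjusted p = 1.64e-06, n = 4739 peaks). Intergenic summits made up 29.3% against 21.7%, a difference of 7.59 points (3.32 to 11.9; adjusted p = 0.00125, n = 4739 peaks). The intron difference did not pass among the stronger 50% of peaks (7.35 points; adjusted p = 0.307, n = 2370 peaks), and the intergenic one did not pass with 1 summit per run (5.73 points; adjusted p = 0.0826, n = 4066 peaks). A promoter as defined spans 1201 bp, less than the median span of a run, and the part of this in the 3 differences was not tested.

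The distance from the summit to the nearest protein-coding start was larger in runs. Its median was 1332 bp for clustered summits and 712 bp for the others, and the mean log2 distance differed by 0.74 (0.53 to 0.95; adjusted p = 2.1e-11, n = 4739 peaks). Summits over 5000 bp from any such start were nearly as frequent in both, at 9.65% (91) and 8.88% (337). The nearest genes themselves differed little in length, with medians of 3068 and 2917 bp and a difference of 0.06 in mean log2 length that did not pass (adjusted p = 0.534, n = 4739 peaks). Both of these fits were chosen after the data had been seen. The distance is taken from the summit positions that the rule used, and summits spread along a run cannot all lie at 1 start. The part of this in the distance difference was not tested.

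**Figure D2:**
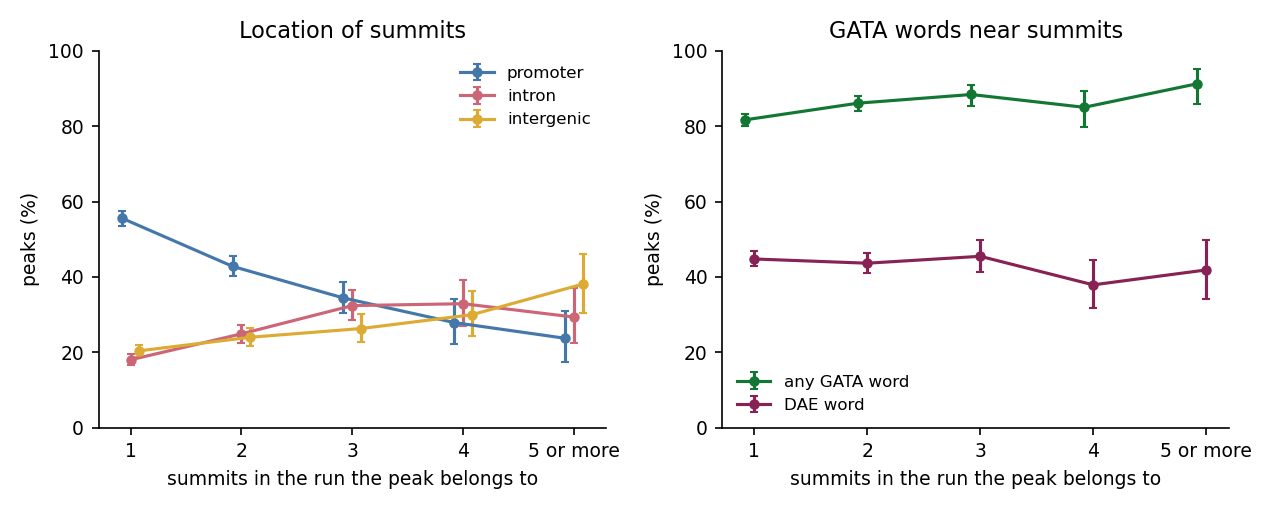
Share of peaks in percent (y axis) by the number of summits in the run to which a peak belongs (x axis); points are shares and bars exact 95% Clopper-Pearson intervals, which take peaks as independent. The left panel gives the location of summits and the right panel the share with any GATA word or with the DAE word within 100 bp to either side. The promoter share falls from 55.6% of single peaks to 23.8% in runs of 5 or more, and the DAE share stays between 37.9% and 45.5%. Promoters span 1201 bp, less than most runs, and the part of this in the fall was not tested.

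The promoter share was lower in larger runs. It was 55.6% of the 2472 single peaks, 42.8% of the 1324 in pairs, 34.4% of the 543 in runs of 3, 27.9% of the 240 in runs of 4 and 23.8% of the 160 in runs of 5 or more. The intergenic share went the other way, from 20.4% of single peaks through 24.0%, 26.3% and 30% to 38.1%. The intron share was 18.04% for single peaks and 24.9% for pairs, and between 29.4% and 32.9% in runs of 3 or more. Peaks of pairs thus lay between single and clustered peaks in all 3 locations. This order is a description, with no test of a trend. Location is taken from the summit positions that the rule used. A promoter of 1201 bp is shorter than the median run span of 3483.5 bp, and the part of this in the order was not tested.

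Counted by run, 188 of 270 (69.6%) had at least 1 summit in a promoter. There were 107 runs with 1 promoter summit, 61 with 2 and 20 with 3 or more, and 82 had none. In 34 runs every summit lay in an intron outside promoters, in 20 every summit was intergenic and in 12 every summit was in a promoter. The summits of 126 runs shared 1 nearest gene start, 120 runs had 2 nearest genes, 21 had 3 and 3 had 4. Mixed runs, with sites in a promoter and away from it, were the most common kind. Such counts depend on the 31% of clustered summits in promoters and on the run sizes, and the part of these was not tested.

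Any GATA word was more frequent at clustered summits, while the difference in the DAE word did not pass. A GATA word lay near 88.0% of clustered summits and 83.2% of the others, a difference of 4.80 points (2.25 to 7.35; adjusted p = 0.000673, n = 4739 peaks). This call was lost in runs of 4 or more summits (3.63 points; adjusted p = 0.0922, n = 4739 peaks), among the stronger 50% of peaks (3.15 points; adjusted p = 0.190, n = 2370 peaks) and with the first summit of each run (1.23 points; adjusted p = 0.790, n = 4066 peaks). The DAE word was present at 42.9% and 44.4%, a difference of −1.44 points that did not pass (−5.07 to 2.19; adjusted p = 0.534, n = 4739 peaks). Of all windows of the same length that tile the nuclear genome, 35.7% hold a GATA word and 3.47% the DAE word, less than the share at either kind of summit. Every DAE word contains the GATA word TGATAA, and the 2 counts overlap.

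Counts of words by run depend on the shares over all clustered summits, 88.0% with a GATA word and 42.9% with the DAE word. All summits of 178 runs (65.9%) had a GATA word, and no run lacked one altogether. The DAE word was present at 1 or more summits in 227 runs (84.1%), at all summits in 25 and at none in 43. Whether the words gathered in certain runs beyond those shares was not tested. By place in the run, a GATA word lay at 84.4% of first, 90.1% of interior and 88.5% of last summits by coordinate, and the DAE word at 43.3%, 40.2% and 46.7%. The place in a run has no orientation to a gene, and these shares were not tested. Only 3 runs held summit windows that shared an identical stretch of 25 bases, at clc-25, at fbxa-32, fbxa-31 and fbxa-29, and at R07C12.3 and K08D10.10. Repeated sequence of that length was thus rare among the runs.

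No difference passed in base composition or in 3 other words. Mean GC content of the window was 37.4% and 37.5% (difference −0.07 points, −0.567 to 0.427; adjusted p = 0.781, n = 4739 peaks). GAGAGA, a repeat found at many nematode promoters, was present at 25.03% against 26.7% (adjusted p = 0.45, n = 4739 peaks). GTAAACA, the forkhead word bound by DAF-16, was present at 5.09% against 4.85% (adjusted p = 0.781, n = 4739 peaks). CACGTG, the E-box bound by basic helix-loop-helix factors, was present at 7.0% against 6.09% (adjusted p = 0.45, n = 4739 peaks). In the tiled genome 9.99%, 2.27% and 3.33% of windows hold these 3 words. They were searched on both strands, and these 3 fits were chosen after the data had been seen.

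**Figure D3:**
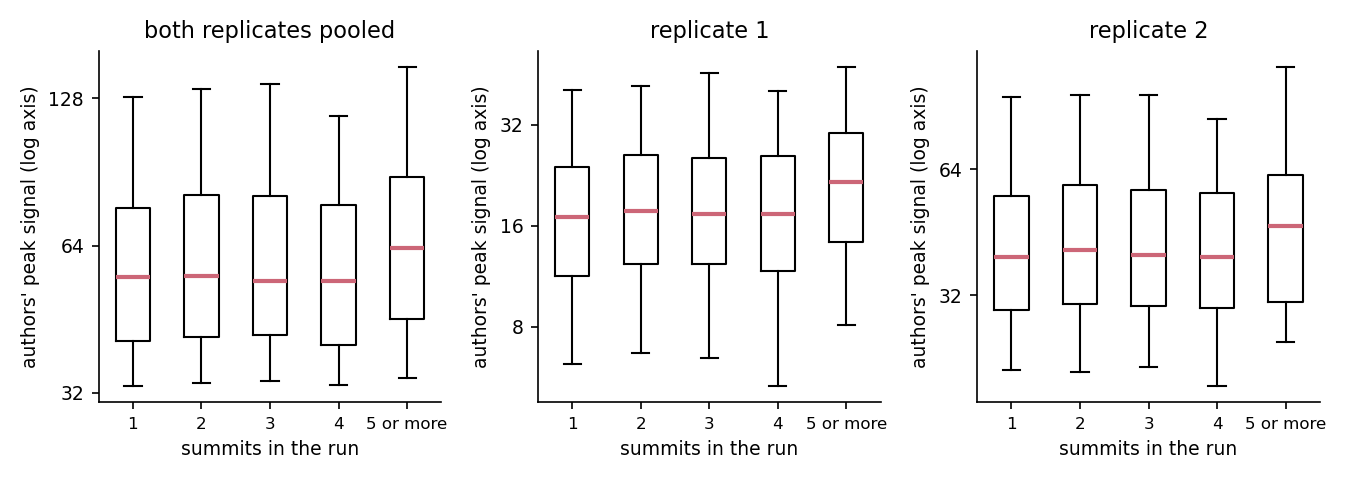
Peak signal as the authors give it (y axis, log scale) by the number of summits in the run (x axis), in the pooled optimal list and for the overlapping peaks of replicates 1 and 2, each list on its own scale. Boxes run between the quartiles with the median in red, and whiskers reach the 5th and 95th percentiles. The pooled medians are between 54.1 and 55.4 for runs of 1 to 4 summits and 63.1 for 5 or more.

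Clustered peaks and the others differed little in height. The pooled signal had a median of 56.2 in runs (31.6 to 278) and 55.3 outside (31.5 to 350). Mean log2 signal was 5.91 and 5.87, a difference of 0.03 that did not pass (−0.01 to 0.08; adjusted p = 0.273, n = 4739 peaks). In replicate 1 the medians were 17.95 and 17.2, and mean log2 signal was higher in runs by 0.08 (0.02 to 0.14; adjusted p = 0.0160, n = 4705 peaks). That fit leaves out 3 clustered and 31 other peaks with no overlapping peak in replicate 1. In replicate 2 the medians were 40.7 and 39.9, and the difference of 0.03 did not pass (−0.02 to 0.08; adjusted p = 0.346, n = 4737 peaks; 2 clustered peaks are left out). The difference passed in 1 replicate only, and at a small size. Some peaks of a run, 48 in all, overlapped the same replicate peak as another of their run and so carry the same replicate value.

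Clustered peaks were spread over the range of the list. The stronger 50% of all peaks held 479 of the 943 (50.8%), and 23 of the 100 strongest peaks lay in runs, beside 943 of all 4739 peaks. Medians of 54.2 in runs of 3, 54.1 in runs of 4 and 63.1 in runs of 5 or more stood beside 55.1 for single peaks. In replicate 1 the corresponding medians were 17.4, 17.4 and 21.7 beside 17.0, and in replicate 2 they were 39.9, 39.4 and 46.9 beside 39.4. The largest runs had the highest median in each list, a description with no test.

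Summits of 1 run differed in height almost as much as summits taken from different runs. The SD of log2 signal was 0.62 within runs and 0.63 over all members, and the share of the variance that lay between runs was 0.0228. The tallest peak of a run was a median of 2.16 times the weakest (1.05 to 6.13), and the ratio was at least 2 in 155 runs. The tallest summit was the middle one in 62 of the 181 runs of 3. Tall and weak summits thus stood side by side in most runs.

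Weaker pooled peaks also lay near the clustered summits. The pooled list holds 14082 peaks below the optimal list, which the rule did not use. A clustered summit had a mean of 1.97 of them within 3000 bp, against 1.61 for other summits, a difference of 0.355 (0.206 to 0.505; adjusted p = 1.13e-05, n = 4739 peaks). At least 1 was present near 86.4% and 78.3%. The difference did not pass with a joining distance of 2000 bp (0.158; adjusted p = 0.151, n = 4739 peaks) or among the stronger 50% of peaks (0.316; adjusted p = 0.162, n = 2370 peaks). Between the first and last summits of 172 runs lay 325 such weaker peaks.

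Nearly all clustered peaks were seen in both replicates. Both replicate lists overlapped 938 of 943 (99.5%), beside 3765 of 3796 others (99.2%), and 265 of 270 runs had every summit in both. The replicate lists hold background peaks too, so overlap is a low bar. When the rule was applied to the 4739 strongest peaks of each replicate alone, 189 of the 270 runs (70.0%) met a run in replicate 1 and 222 (82.2%) in replicate 2. Both replicates gave a run at 160 (59.3%), and neither did at 19. Most runs thus met a run in each replicate alone. These lists overlap with the pooled data that chose the members, and the shares are descriptions.

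Clustered summits had 436 of 19973 protein-coding genes as the nearest start (2.18%), and 281 genes (1.41%) had 1 in the promoter. All optimal summits together had 3555 nearest genes, of which 12.3% had a clustered summit. Among the 436, 155 had 1 clustered summit, 114 had 2 and 167 had 3 or more, with 37 at 4 or more. Nearest is a matter of distance, and whether the peak acts on that gene was not measured.

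Ceramide synthase gene hyl-1 had the most, 8 clustered summits in 2 runs on chromosome IV. The first run, at 8527698 to 8535197, lay entirely within introns of pkg-2, which encodes a cGMP-dependent protein kinase, and 5 of its 7 summits had hyl-1 as the nearest start. Its pooled signals were 116, 84.3, 224, 71.4, 39.6, 86.8 and 46.0 along the chromosome, and the third summit, with 63.3 in replicate 1 and 168 in replicate 2, was the tallest in both. The second run, of 3 summits in introns of hyl-1, had 125, 89.2 and 96.5. Its 3 values were closer together than those of the first run.

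Next came nhr-31 and vhp-1 with 7 each. The gene vhp-1 encodes a phosphatase of stress-activated MAP kinases, and its tallest summit, in an intron at +750 bp, had 228 pooled, 65.9 in replicate 1 and 158 in replicate 2. The other 6 ranged from 33.2 to 79.2, so 1 summit stood well above the rest. The weakest of them, at +10153 bp, had no overlapping peak in replicate 2. Sex determination gene tra-1, a zinc finger factor of the Gli family, had 6 in 2 runs with pooled signals from 42.8 to 99.1. The gene daf-5, a Sno/Ski relative in the dauer TGF-beta pathway, also had 6 in 2 runs, all within its introns and with pooled signals from 38.7 to 88.1.

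The genes with 5 clustered summits were klf-1, W04D12.1, jun-1, M163.1, dlg-1, bcat-1, mdl-1 and sca-1. Of these, klf-1 (a Krüppel-like factor), jun-1 (a Jun-type basic leucine zipper factor) and mdl-1 (a Mad-like helix-loop-helix factor) encode DNA-binding proteins. At klf-1 the signals ran 68.2, 127, 36.9, 63.0 and 93.4 from −5074 to +1285 bp, tallest at −4443 bp in the pooled data and in both replicates (43.0 and 84.5). At jun-1 the summit farthest into the gene, at +4925 bp, was the tallest of the 5 with 112, and in replicate 2 with 86.6, while in replicate 1 the summit at +3432 bp was the tallest with 29.98. At mdl-1 the tallest was at +2382 bp with 99.5. In all 3 genes the summit nearest the start was not the tallest.

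The other genes with 5 include dlg-1, a scaffold of epithelial junctions, with signals from 33.2 to 89.5, and sca-1, the calcium pump of the sarcoplasmic reticulum, from 34.7 to 64.3. The gene bcat-1, a branched-chain amino acid aminotransferase, had 34.3 to 85.8. Ranked next, pgp-1 (a P-glycoprotein transporter) and crh-2 (a CREB-type factor), had 4 each. The summit of pgp-1 at −186 bp had 202 pooled, 49.8 in replicate 1 and 162 in replicate 2, and was the tallest of its 4 in both. The remaining 3 of pgp-1 were at 131, 51.9 and 51.8.

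**Figure D4:**
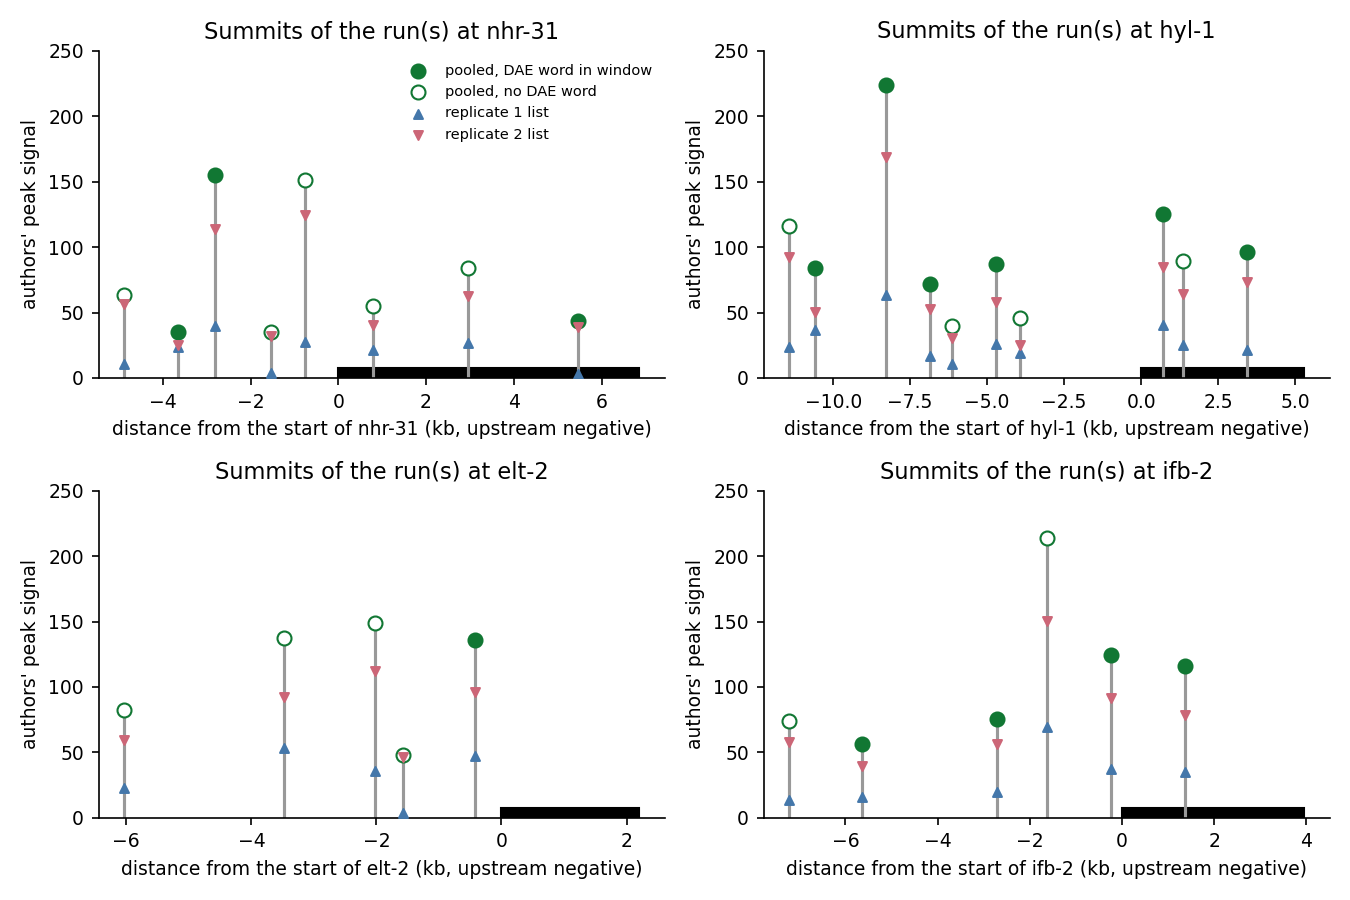
Peak signal as the authors give it (y axis) of every summit of the runs at nhr-31, hyl-1, elt-2 and ifb-2, by distance from the gene's start in kb (x axis, upstream negative); black bars are the genes. Circles are pooled values, filled where the DAE word lies within 100 bp to either side, and triangles the overlapping peaks of replicates 1 and 2, each on its own scale. At ifb-2 the tallest summit, with 214, is upstream of the promoter summit with 124, and at elt-2 a summit with 48.3 stands between taller ones.

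Of the 15 intestinal marker genes, 7 (46.7%, exact 95% interval 21.3 to 73.4) were nearest to a clustered summit, where the share of all protein-coding genes was 2.18%. In 6 of them the promoter held a clustered summit, where the share of all was 1.41%. Some optimal summit had 13 of the 15 as nearest, beside 3555 of all 19973 protein-coding genes. The 7 were pgp-1 with 4, ifb-2, elt-2 and asp-1 with 3 each, and erm-1, pept-1 and act-5 with 2 each. No marker of body wall muscle (0 of 6), hypodermis (0 of 6), neurons (0 of 6), germline (0 of 6) or pharynx (0 of 4) was nearest to one. Lists this short allow shares of up to 45.9% for 0 of 6 and 60.2% for 0 of 4. These lists were written with earlier results of the data known and got no test.

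The intestinal intermediate filament gene ifb-2 lay in a run of 6 on chromosome II at 5742968 to 5751549. The summits at −1617, −227 and +1361 bp had 214, 124 and 116 pooled, 69.4, 37.4 and 34.9 in replicate 1 and 150, 91.3 and 78.8 in replicate 2. All 3 lists thus gave the same order. The gene act-5, the actin of intestinal microvilli, had summits at −208 and −836 bp with 110 and 42.8, and the third of the run, at shpk-1, had 126. At erm-1, which encodes the ezrin-type linker of the apical membrane, 3 intronic summits had 204, 68.6 and 190, and their median of 190 was the highest of any run. The peptide transporter gene pept-1 had 129 at −92 bp and 60.4 at +1809 bp, and the protease gene asp-1 had 60.7 at −909 bp, 42.4 at −2712 bp and 41.7 at +1383 bp.

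The GATA factor genes elt-4 and elt-2 share a run of 5 summits on chromosome X at 10475210 to 10480811, with C39B10.7 between them. The windows were chosen after their values were seen, because those at elt-4 −317 bp and elt-2 −2029 bp carry a similar stretch. They are printed as above, plus strand, with GATA words in capitals. The summit in the 3′ untranslated region of C39B10.7 is not printed.
elt-4 at −317 bp, chrX:10475160-10475260: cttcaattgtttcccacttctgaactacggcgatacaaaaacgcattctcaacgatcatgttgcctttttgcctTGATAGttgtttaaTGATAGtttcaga
elt-2 at −2029 bp, chrX:10479161-10479261: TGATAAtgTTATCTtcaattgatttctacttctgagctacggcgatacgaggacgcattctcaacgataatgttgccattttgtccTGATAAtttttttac
elt-2 at −1569 bp, chrX:10479621-10479721: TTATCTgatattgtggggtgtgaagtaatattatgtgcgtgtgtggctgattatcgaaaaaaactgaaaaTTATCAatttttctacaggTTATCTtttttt
elt-2 at −429 bp, chrX:10480761-10480861: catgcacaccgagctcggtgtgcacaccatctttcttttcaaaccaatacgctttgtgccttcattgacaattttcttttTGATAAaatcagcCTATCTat

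When windows reaching 100 bp to either side were aligned, the elt-4 summit and the elt-2 summit at −2029 bp had 158 identical bases of 186 aligned (84.9%) with 1 gap, on the same strand. That alignment scored 228, and the next best among these windows scored 26. No summit windows of this run shared an identical stretch of 25 bases. Reads from similar stretches can be hard to place, and the mapping filter is not given in the sources used here. Whether read placement had a part in these signals was not tested. Along the chromosome the 5 pooled signals were 82.4, 137, 149, 48.3 and 136. Replicate 1 gave 22.7, 53.6, 36.1, 3.46 and 47.6, and replicate 2 gave 59.5, 92.2, 113, 46.2 and 95.9. The summit at −1569 bp was the lowest in all 3 lists, and the tallest was at −2029 bp in the pooled data and replicate 2 and in C39B10.7 in replicate 1.

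Among 12 genes of GATA factors and endoderm regulators, 3 (25%) were nearest to a clustered summit, beside 2.18% of all protein-coding genes. They were elt-2, egl-27 with 3 and elt-4 with 1. The gene egl-27 encodes a relative of MTA chromatin proteins with a GATA-type finger, and its 3 summits were all over 5000 bp upstream, with 117, 38.0 and 59.2. The intestinal GATA factor gene elt-7 had no clustered summit and 1 optimal summit outside runs. The gene daf-16, which encodes the FOXO factor of insulin signalling, had 5 optimal summits outside runs and none inside. Neither pqm-1 nor unc-119, the gene mutated in the strain, was nearest to any optimal summit.

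Of 20 stress and longevity transcription factor genes, 5 (25%) were nearest to a clustered summit, beside 2.18% of all protein-coding genes, and 17 to some optimal summit, beside 3555 of 19973. They were zip-2 with 3, and xbp-1, skn-1, hif-1 and hlh-30 with 2 each, and in 2 of the 20 a clustered summit lay in the promoter, beside 1.41% of all. At zip-2, a bZIP factor of infection responses, the summits at +141, +953 and +2828 bp had 92.0, 45.8 and 33.1. The gene xbp-1, a factor of the unfolded protein response, had 136 at −73 bp and 35.1 at +1601 bp. Those of skn-1, the Nrf-type oxidative stress factor, were intronic with 91.3 at +705 bp and 58.8 at +1276 bp. Those of hif-1, the hypoxia factor, were intergenic with 45.2 and 36.0, and those of hlh-30, the TFEB relative, intronic with 44.0 and 38.8. The tallest of these summits was the one in the xbp-1 promoter. None of 15 insulin signalling genes was nearest to a clustered summit (upper limit of the exact 95% interval 21.8%, which lies above 2.18%), although 5 were nearest to an optimal summit.

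Nuclear hormone receptor genes accounted for 15 of the 436, out of 269 (5.58%), beside 2.18% of all protein-coding genes. A clustered summit lay in the promoter of 11 of the 269, beside 1.41% of all. Some optimal summit had 85 of the 269 as nearest, beside 3555 of all 19973 protein-coding genes. After nhr-31 came nhr-35 and nhr-1 with 4 each and nhr-45 with 3. The promoter summit of nhr-35 at −273 bp was its tallest, with 111 pooled, 43.2 in replicate 1 and 71.5 in replicate 2. At nhr-45 the tallest, with 121 pooled, 47.8 and 72.3, lay at −2041 bp, and at nhr-1 all 4 ranged from 36.2 to 56.2. The height of the promoter summit relative to its neighbours thus differed from gene to gene.

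Enzyme and surface-protein families stood on both sides of the 2.18% of all protein-coding genes that were nearest to a clustered summit. Of 67 UDP-glucuronosyltransferase genes, which encode conjugating enzymes, 7 were nearest to one (10.4%, exact 95% interval 4.30 to 20.3), led by ugt-44 with 3 at 56.4, 39.6 and 33.4, and ugt-18 with 2. All 7 lay in runs shared with another gene of the family, as ugt-43 with ugt-44 and ugt-16 with ugt-18. The interval takes genes as independent, which such neighbours are not. Of 74 cytochrome P450 genes, 2 were (2.70%), cyp-13A2 with 2 and cyp-13A3 with 1, in the same run. Of 240 C-type lectin genes 6 were (2.5%), led by clec-80 and clec-5 with 3 each. Of 1171 chemoreceptor genes only 4 were (0.342%), srv-8 with 2 and sre-48, srh-16 and srw-86 with 1 each. Over each whole family, the shares of P450 and lectin genes were thus near that of all genes. Of the genes nearest to some optimal summit, clustered summits had 7 of 37 UDP-glucuronosyltransferase, 2 of 30 P450, 6 of 48 lectin and 4 of 32 chemoreceptor genes. For all 3555 such genes the share was 12.3%. The families thus also differed in how many of their genes were nearest to any optimal summit.

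In 4 large families no gene was nearest to a clustered summit. They were homeobox genes of the ceh class (0 of 63, upper limit 5.69%), cytosolic ribosomal protein genes (0 of 78, 4.62%), vacuolar ATPase genes (0 of 20, 16.8%) and collagens of the col class (0 of 156, 2.34%). Single and paired optimal summits had 8, 23, 10 and 9 of these genes as nearest. Of all 19973 protein-coding genes, 3555 were nearest to some optimal summit. The shares of ceh and col genes lay below that of all genes, and those of the other families above it. The families were therefore not free of PQM-1 peaks. Each upper limit lies above the 2.18% of all protein-coding genes, so a share equal to that of all genes lies within each interval.

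Among the 10 runs with most summits, a run of 7 on chromosome II at 8383047 to 8392414 lay at F49E12.12, drd-1 and F49E12.10, with a tallest signal of 199. Runs of 6 summits lay at bcf-1 and the chitinase gene cht-6 (chromosome V, 6407746 to 6414638, tallest 146), at pals-20, pals-17 and pals-16 (III, 1388608 to 1398386, 122) and at T14G8.4 and bcat-1 (X, 12870022 to 12877961, 133). Others of 6 lay between the synaptotagmin gene snt-1 and egl-27 (II, 6821975 to 6829354, 117, all intergenic) and at R03E9.2 and mdl-1 (X, 6736469 to 6744733, 99.5). A pair of snt-1 summits that are 203 bp apart overlapped the same peak in each replicate, and the replicate lists do not separate them.

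The run of 6 on chromosome III at 8794930 to 8802312 had a different make-up. It lay in introns of the chromatin gene zfp-1 with ztf-1 and F54F2.6 as nearest starts. Its signals along the chromosome were 64.4, 58.1, 124, 45.9, 47.5 and 38.7. No summit had the DAE word and 2 of 6 had a GATA word, beside 8 of 8 at nhr-31, 7 of 7 in the pkg-2 introns and 4 of 6 at mdl-1. Smaller runs also had few, such as 1 of 4 at mnk-1 and cdc-48.1 and 1 of 4 at T16G1.7, T16G1.6 and T16G1.5.

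Among the 10 runs of highest median signal, after erm-1 (chromosome I, 5287389 to 5290868) came the runs at abt-4 and dmd-8 (chromosome V, 331421 to 333887, median 149), at sma-6 and set-4 (II, 6327566 to 6331659, 144) and the run at elt-4 and elt-2, at 136. The gene sma-6 encodes a type I receptor of the body-size TGF-beta pathway, and set-4 a histone methyltransferase. Next were R08E3.3 and R08E3.1 (X, 4819055 to 4822497, 120), epg-5 and the Krüppel-like factor gene klf-3 (II, 6612757 to 6616354, 115) and the galectin gene lec-9 (X, 17598888 to 17601554, 112). The last 3 were act-5 and shpk-1 (III, 13606274 to 13608039, 110), the saposin-like genes spp-3 and spp-2 (X, 7314821 to 7317076, 107) and T26H5.8 (V, 15432682 to 15436320, 100.9). At spp-3 and spp-2 the promoter summits, at −200 and −258 bp, had 107 and 137, and the third summit had 41.1.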

How the data were processed

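Chromatin immunoprecipitation with sequencing was done on L4 larvae, and peak lists were the data. Per the readmes deposited with the files, the authors made ce11 lists for replicate 1 (2 technical libraries together), replicate 2, both pooled, and an optimal list from the irreproducible discovery rate step. Each list holds a signal per peak, which the authors set against a control alignment. Of the ce10 lists the optimal one served for a count of runs and the others were not used here. The peak caller, aligner and threshold were not given in the sources used here. The control library was not used here, and there are no read counts.

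Summits were annotated with Ensembl release 115 and the RefSeq sequence of the same build. Summits outside promoters were assigned in order to untranslated regions, coding exons, introns, other genes and intergenic sequence. Comparisons were linear fits over all optimal peaks, with errors clustered by run or single peak (two-sided, statsmodels 0.14.6 in Python 3.11.15). They were adjusted by the Benjamini-Hochberg method over 15 fits, 5 of them chosen after seeing the data, and tested on simulated data. Fits under each alternative were adjusted separately, over the fewer fits run there. Replicate values are the tallest peak overlapping by at least 1 bp. Shares of lists carry exact Clopper-Pearson intervals, which cover counting error only and take genes as independent, though neighbouring genes can share a run.

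The members and gene lists were chosen with earlier results of these data known. Named were the 10 runs with most summits, the 10 of highest median signal, the 15 genes with most clustered summits, up to 4 members per list except the intestinal and stress lists, given whole after their values were seen, and elt-2, elt-7, daf-16, pqm-1 and unc-119. Alternatives were joining distances of 2000 and 5000 bp, runs of 4 or more, the stronger 50% of peaks, each replicate left out, windows reaching 50 bp, promoters reaching 500 and 2000 bp upstream, peak midpoints, chromosome or log2 signal as a term, and ce10. The first summit of each run, single peaks as the outside group and promoter location as a term were added after seeing the data.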

Additional observations from a re-analysis of the deposited data

How the results depend on the processing

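Under the alternatives, 91 values kept their direction and their side of the threshold or, for counts, a similar size. The 91 include differences that passed neither in the main fit nor under the alternative. Of the rest, 7 differences no longer passed, 4 changed sign and 8 counts changed more in size. A joining distance of 2000 bp gave 163 runs with 532 peaks, 5000 bp gave 1431 peaks, runs of 4 or more gave 89 runs with 400 peaks and the stronger 50% of peaks gave 46 runs with 154 peaks. These counts follow from the rule itself. The higher share of GATA words did not pass in runs of 4 or more (3.63 points), in the stronger 50% (3.15) or with the first summit of each run (1.23), an alternative chosen after seeing the data. The intron difference did not pass in the stronger 50% (7.35 points), the intergenic one with the first summit of each run (5.73), and that of weaker pooled peaks with 2000 bp (0.158) or in the stronger 50% (0.316). The causes were not tested, but the stronger 50% and the first summits leave fewer peaks. Differences that did not pass in either case changed sign, GC content to 0.017 points with 2000 bp and to between 0.030 and 0.043 points with 1 replicate left out, and log2 signal to −0.0042 with the first summits. The lower promoter share passed under every alternative run. Under each, locations came from the positions that the rule used, and the part of run span in the difference was not tested. With the summit required in the promoter, 281 genes rather than 436 had a clustered summit, 2 rather than 5 of the stress factors, 1 rather than 2 of the cytochrome P450 genes and 2 rather than 4 of the chemoreceptors. Fold changes between conditions and read depth could not be examined.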
